A study of Mus musculus with 12 samples.

Results

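Tcf7, Lef1, Ccr7, Klf2, S1pr1, Id3, Slamf6, Satb1 and Bach2 are genes that are used to mark memory and stem-like T cells, and they were followed here by name as 9 of the 31053 genes in a single-cell RNA sequencing (scRNA-Seq) matrix of CD45+ cells from MC38 tumors. MC38 is a mouse colon adenocarcinoma line, which was grown under the skin of C57BL/6 mice and gives tumors with many immune cells. The labels name 12 mice in 4 groups of 3, which received vehicle or the EZH2 inhibitor (EZH2i) PF-06821497 at 100 mg/kg daily for 7 or for 16 days before tumors were taken on day 17. CD45+ cells were enriched on magnetic beads, and all groups carried the same tumor. The matrix numbers its libraries from 1 to 12, and no label ties a number to a mouse. Values are therefore given over all mice together, with the spread over libraries, and EZH2i was not compared with vehicle.

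The 9 genes encode proteins of a few kinds. TCF-1 (Tcf7) and LEF-1 (Lef1) are HMG box transcription factors that act with beta-catenin and are needed for T cell development, and TCF-1 keeps a self-renewing pool among exhausted CD8+ T cells. KLF2 turns on S1pr1, and S1P receptor 1 and the chemokine receptor CCR7 then let naive and central memory cells leave tissue for blood and enter lymph nodes. ID3 inhibits E proteins, BACH2 represses effector genes, SATB1 organizes chromatin, and Slamf6 (Ly108) is a self-binding SLAM receptor on T, NK and B cells. EZH2 is the methyltransferase of polycomb repressive complex 2, which is known to act mainly at promoters rich in CG pairs.

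Of 140639 barcodes, 128912 passed the cell filter, and 68669 of them fell into 1 of 14 classes gated on lineage transcripts, of which 5485 cells were lymphocytes. There were 3870 CD8 T cells (a unique molecular identifier, or UMI, of Cd3 and Cd8 genes and none of Cd4, Adgre1 or Csf1r), 774 conventional CD4 T cells, 39 Foxp3+ T cells, 90 gamma delta T cells, 465 NK cells and 247 B cells. Libraries held 4256 to 38110 barcodes, and their median depth ranged from 2291 to 15081 UMIs per cell. Genes outside the gates bore the names out in part. Trac was at 521 UMIs per 1000000 (CPM) in CD8 T cells and 19.1 in NK cells, and Gzma at 3188 CPM in NK cells. Ctla4 was at 1515 CPM in Foxp3+ T cells and Pax5 at 204 CPM in B cells. Il17a was at 819 CPM in gamma delta T cells, from 11 of the 90 cells. The gamma chain gene Tcrg-C1 was at 262 CPM there, in 31.1% of cells, against 6.45 CPM in CD8 T cells. The beta chain gene Trbc2 was at 548.5 CPM in gamma delta T cells, in 63.3% of them, against 993 in CD8 T and 167 CPM in NK cells. Whether the gamma delta gate holds alpha beta T cells was not tested. Conventional CD4 T cells also had Ctla4, at 475 CPM and in 57.2% of cells, against 158.5 CPM in CD8 T cells. Il2ra was at 674 CPM in Foxp3+ and 205.5 CPM in conventional CD4 T cells, in 32.2% of the latter. Whether the latter include regulatory T cells without a Foxp3 UMI was not tested. The macrophage gene C1qa was at 284 CPM in CD8 T cells against 6018 CPM in macrophages, and the antibody gene Igkc was at 1568 CPM in conventional CD4 T cells, with 12763 CPM in library 9. Library 4 had 9 CD8 T cells and was left out of ranges over libraries, which use libraries with at least 20 cells of a class. A total of 1877 of the 127014 barcode sequences occurred in more than 1 library. Intervals below are exact 95% Poisson intervals of CPM or Clopper-Pearson intervals of shares of cells, and cover counting error only.

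All 9 genes are protein coding. In the mouse genome (GRCm38, GENCODE M21) Tcf7 lies at chr11:52252371-52283014 on the minus strand, Lef1 at chr3:131110471-131224356, Ccr7 at chr11:99144196-99155077, Klf2 at chr8:72319033-72321656 and S1pr1 at chr3:115710433-115715072. Id3 lies at chr4:136143497-136145755, Slamf6 at chr1:171917515-171953170, Satb1 at chr17:51736187-51833290 and Bach2 at chr4:32238804-32586108. Ccr7, Klf2, S1pr1 and Id3 overlap no other annotated gene, whereas the other 5 share bases with further gene models, 5 of them on Satb1's own strand. RefSeq promoter windows of 250 bases before the RefSeq start (GRCm38.p6) were found for 7 of the 9 genes, and not for Ccr7 and S1pr1. The windows of Bach2 (chr4:32417185-32417434) and Id3 (chr4:136143572-136143821) lie inside the gene as annotated by GENCODE, not before it. The CG pairs of the 7 windows ran from 1 in Slamf6 to 37 in Tcf7, with 5 in Satb1, 7 in Bach2, 11 in Lef1, 18 in Id3 and 29 in Klf2, against a median of 6 over 27025 genes. A window rich in CG pairs and the poorest window are shown, because the study inhibited an enzyme that is known for CG-rich promoters. The CG pairs are in capitals, both are on the plus strand, and the Klf2 window is shown up to the base before the gene as annotated by GENCODE, which leaves 28 of its 29 CG pairs.
Klf2, chr8:72318812-72319032: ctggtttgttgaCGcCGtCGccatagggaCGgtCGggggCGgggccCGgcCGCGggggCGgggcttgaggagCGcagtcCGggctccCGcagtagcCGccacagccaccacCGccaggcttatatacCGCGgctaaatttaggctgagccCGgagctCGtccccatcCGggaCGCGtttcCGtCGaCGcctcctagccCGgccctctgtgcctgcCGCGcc
Slamf6, chr1:171917212-171917461: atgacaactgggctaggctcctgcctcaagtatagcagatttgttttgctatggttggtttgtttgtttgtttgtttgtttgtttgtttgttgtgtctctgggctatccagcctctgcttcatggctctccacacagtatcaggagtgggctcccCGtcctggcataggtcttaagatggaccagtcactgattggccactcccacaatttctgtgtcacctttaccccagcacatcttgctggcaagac
The Klf2 window held more CG pairs than 93.6% of promoters and the Tcf7 window more than 97.9%, whereas the Slamf6 window held more than 8.27%. The letters CTTTGA, the core that TCF-1 and LEF-1 are known to bind, were searched on both strands. They occurred once in the Bach2 window, which lies inside the gene, and in none of the other 6 windows, against 14.1% of all promoters.

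Among lymphocytes the 9 genes did not single out T cells. B cells had the highest level of 7 of them (Ccr7, Klf2, S1pr1, Id3, Slamf6, Satb1 and Bach2), and Tcf7 and Lef1 were the exceptions, with their lowest level in B cells. For S1pr1 the B cell interval (87.1 to 151) overlapped that of gamma delta T cells (28.8 to 92.4). For Slamf6 it (56.0 to 109.5) overlapped that of conventional CD4 T cells (65.1 to 83.6). At least 2-fold lower in CD8 T than in B cells were 7 of the 9, against 9.79% of the 11229 genes with at least 20 UMIs in the pair of classes together, and at least 2-fold higher were 2 of the 9 (Tcf7 and Lef1), against 12.3% of genes. Single libraries went the same way, as Tcf7 and Lef1 were higher in CD8 T cells in 8 of the 8 libraries that held 10 or more cells of each class, and Ccr7, Klf2, Satb1 and Bach2 were lower in 8 of 8. B cells were shallow (median 1361 UMIs), 110 of the 247 came from library 10, and a mitochondrial limit of 5% in place of 10% left 28 of them, with Slamf6 at 12.2 CPM instead of 79.5, Satb1 at 342 instead of 666, S1pr1 at 61.2 instead of 116 and Id3 at 24.5 instead of 38.7 CPM. S1pr1 and Slamf6 were lower in CD8 T cells in 7 of 8 libraries and Id3 in 4 of 8. The smaller lymphocyte classes depended most on the settings tried, since 8 of 9 members in gamma delta T cells, 7 in Foxp3+ T cells, 6 in NK cells, 5 in B cells and 4 in conventional CD4 T cells moved by over 1.5 times under at least 1 of them, against 1 (Ccr7) in CD8 T cells.

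**Figure D1:**
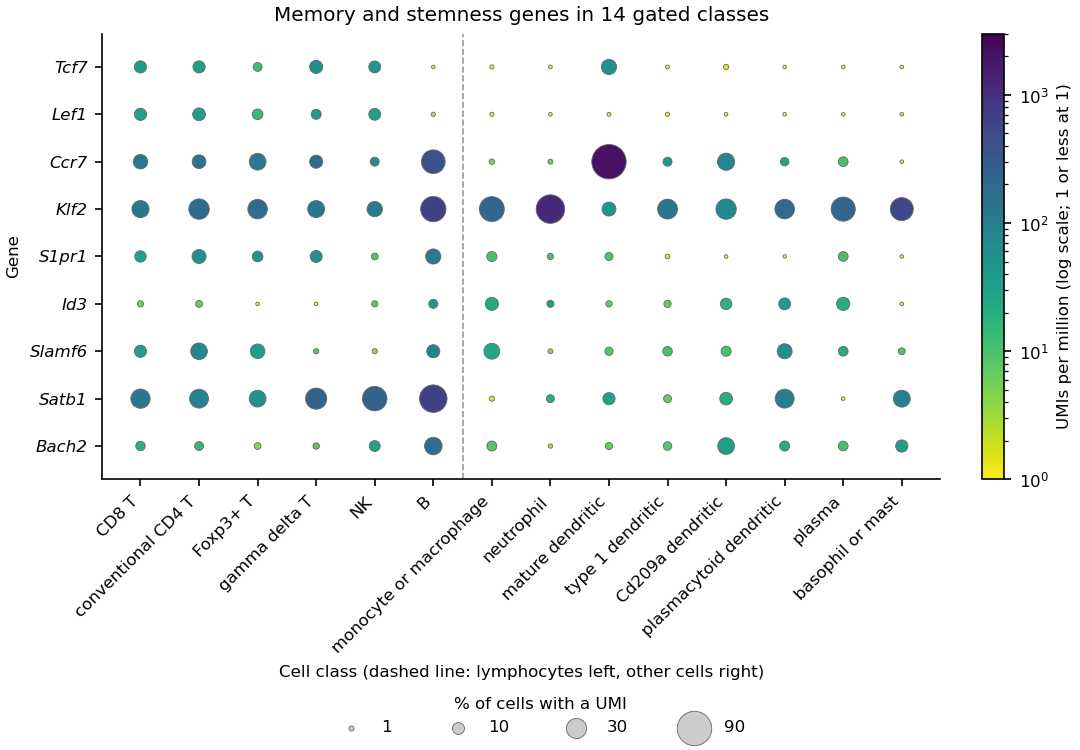
Level of each gene (color, CPM on a log scale) and share of cells with at least 1 UMI (dot area) in 14 gated classes, all libraries pooled; a gene with no UMI is drawn as the smallest dot. Tcf7 and Lef1 were low in B cells, Ccr7 stood at 2122 CPM in mature dendritic cells, and Klf2 at 1183 CPM in neutrophils.

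Tcf7 had 35.4 CPM in CD8 T cells (32.4 to 38.5), with a UMI in 10.3% of cells. It was at 31.4 CPM in conventional CD4 T cells (25.7 to 37.9), 49.9 in gamma delta T cells (25.8 to 87.1) and 42.7 in NK cells (33.0 to 54.4). These 4 classes did not differ beyond their counting intervals, and within 10 libraries Tcf7 was higher in CD8 T than in NK cells in 4 and lower in 6. Foxp3+ T cells had 3 Tcf7 UMIs in 39 cells, or 12.8 CPM (2.64 to 37.4), which overlapped the other classes. B cells had no Tcf7 UMI in 247 cells, which allows a share of up to 1.22% (3 of 247), so that the CD8 T cell level was at least 5.49-fold higher, taking 3 UMIs over the B cells as the floor. Without library 8, Tcf7 in conventional CD4 T cells was at 21.8 CPM. With a stricter myeloid exclusion, described below, CD8 T cells were at 43.1 and conventional CD4 T cells at 25.0 CPM. As the median over libraries, Tcf7 in NK cells was at 25.9 CPM, against 32.9 in CD8 T cells.

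Lef1 was at 33.0 CPM in CD8 T cells (30.1 to 36), 33.4 in conventional CD4 T cells (27.6 to 40.2), 37.4 in gamma delta T cells (17.1 to 71.0) and 32.8 in NK cells (24.4 to 43.3), whose intervals overlapped throughout. As the median over libraries, conventional CD4 T cells were at 19.3 and CD8 T cells at 37.8 CPM. The gamma delta level was 6.52 CPM at the 5% mitochondrial limit. It was 16.3 CPM with a stricter myeloid exclusion, which also left out cells with a UMI of C1qa, C1qb, C1qc, Fcgr3 or Csf3r or with more than 2 of Lyz2. Foxp3+ T cells again had 3 UMIs (12.8 CPM), and B cells had 1 UMI in 247 cells (2.15 CPM, 0.0544 to 12). CD8 T cells were at least 2-fold higher than Foxp3+ T cells for Tcf7, Lef1 and Satb1, 3 of 9 genes against 3.39% of all genes, and at least 2-fold lower for none, against 10.6%. In these counts the lower class of a pair is set to 3 UMIs where it has fewer, which leaves out Bach2, with 1 UMI in Foxp3+ T cells (4.27 CPM) against 17.7 CPM in CD8 T cells. Those Foxp3+ values rest on 39 cells, 15 of them from library 8. Without that library Lef1 was at 26.5 CPM and Tcf7 at 17.7 CPM, less than 2-fold below the CD8 T cell levels of 29.6 and 32.0 CPM without it, while Lef1 was at 4.70 CPM without library 2 and Tcf7 at 4.41 CPM without library 6. The Lef1 order turned after thinning each cell to 500 UMIs, with 51.3 CPM in Foxp3+ (median of 21 draws, 0 to 102.6) and 36.7 in CD8 T cells. It also turned with the stricter exclusion (58.2 against 39.5 CPM), which left 6 Foxp3+ T cells.

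The migration genes were ordered in another way. Ccr7 was at 127 CPM in CD8 T cells (121 to 133), 143 in conventional CD4 T cells (131 to 157), 120 in Foxp3+ T cells (79.4 to 173) and 175 in gamma delta T cells (126 to 236), and it was lower in NK cells at 63.1 CPM (51.1 to 77.0). B cells stood above these at 423 CPM (366 to 487). The gamma delta level was 66.7 CPM after thinning each cell to 500 UMIs and 97.6 CPM with the stricter exclusion, which put NK cells at 28.8 CPM. That exclusion left 164 of the 465 NK cells. Whether the Fcgr3 UMIs it acts on were the NK cells' own transcripts was not tested. The NK value rests on few cells, since 24 of 465 had a UMI and without library 11 it was 32.9 CPM. With 2 or more UMIs of the gate genes it was 92.4 CPM. Ccr7 was higher in CD8 T than NK cells in 9 of 10 libraries.

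Among lymphocytes, Klf2 and its target S1pr1 were both highest in B cells, at 662 CPM (590 to 740) and 116 CPM (87.1 to 151). Klf2 was at 122 CPM in CD8 T cells (117 to 128) and 119 in NK cells (102 to 138), or 57.7 with the stricter exclusion, with 193 in conventional CD4 T cells (178 to 208). The conventional CD4 T cell level was 96.7 CPM without library 8, which held 212 of the 774 cells, and Klf2 was higher in CD8 T cells in 6 of 11 libraries. In Foxp3+ T cells Klf2 was at 175 CPM and S1pr1 at 47.0 CPM, and at 26.5 and 8.84 CPM without library 8. S1pr1 parted from Klf2 in NK cells, where it was at 8.54 CPM (4.55 to 14.6) against 29.4 in CD8 T cells (26.7 to 32.3) and 52.5 in conventional CD4 T cells (45.1 to 60.8). It was higher in CD8 T than in NK cells in 9 of 10 libraries and lower in CD8 T than in conventional CD4 T cells in 8 of 11.

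Slamf6 was detected in T and B cells and hardly in NK cells. It was at 73.9 CPM in conventional CD4 T cells (65.1 to 83.6) and 35.2 CPM in CD8 T cells (32.3 to 38.4), and NK cells had 5 UMIs in 465 cells, or 3.28 CPM (1.07 to 7.67). The CD8 T cell level was 10.7-fold that of NK cells and was the higher of the pair in 10 of 10 libraries. Against NK cells CD8 T cells were at least 2-fold higher for Ccr7, S1pr1 and Slamf6, 3 of 9 genes against 5.81% of all genes, and at least 2-fold lower for Satb1, 1 of 9 against 5.12%. Against gamma delta T cells 1 of 9 (Slamf6) was at least 2-fold higher in CD8 T cells with this floor of 3 UMIs, against 3.33% of genes, while Bach2 had 2 UMIs there (8.31 CPM) and was not counted, and none was at least 2-fold lower, against 10.1%. Gamma delta T cells had little Slamf6, with 2 UMIs in 90 cells (8.31 CPM, 1.01 to 30), both from library 11. Conventional CD4 T cells exceeded CD8 T cells in 9 of 11 libraries. Slamf6 was the single member at least 2-fold lower in CD8 than in conventional CD4 T cells, against 4.34% of genes, and none was at least 2-fold higher, against 3.63%. Library 8 raised both levels, which were 26.5 CPM in CD8 T cells and 54.0 in conventional CD4 T cells without it.

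Of the nuclear regulators, Satb1 was highest in B cells (666 CPM, 594 to 744), followed by NK cells (253, 228 to 280) and gamma delta T cells (249, 190 to 321, or 163 with the stricter exclusion). In the 26 gamma delta T cells of library 6, the only library with at least 20 of them, Satb1 was at 51.4 CPM. CD8 T cells stood at 125 CPM (119 to 131), conventional CD4 T cells at 94.7 (84.7 to 106) and Foxp3+ T cells at 47.0 (23.4 to 84.0), or 17.7 CPM without library 8. NK cells exceeded CD8 T cells in 9 of 10 libraries. Bach2, which represses effector programs in T cells and plasma cell programs in B cells, was at 165 CPM in B cells (131 to 207), 28.9 in NK cells (21 to 38.8) and 17.7 in CD8 T cells (15.6 to 19.9). NK cells exceeded CD8 T cells for Bach2 in 8 of 10 libraries. Id3 was sparse, at 5.45 CPM in CD8 T cells (4.34 to 6.77), 6.45 in conventional CD4 T cells (4.04 to 9.77) and 7.88 in NK cells (4.07 to 13.8), with no UMI in 39 Foxp3+ or 90 gamma delta T cells, which allows shares of up to 7.69% and 3.33%. Its 38.7 CPM in B cells (22.9 to 61.1) came from 18 UMIs, and it was 24.8 CPM without library 2.

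Within CD8 T cells the libraries differed widely in these genes. Over 11 libraries Tcf7 ran from 12.1 CPM (library 3) through a median of 32.9 to 189 CPM (library 10), and Lef1 from 13.4 (library 6) through 37.8 to 175 CPM (library 10). Satb1 ran from 56.7 through 134 to 649 CPM and Klf2 from 26.9 through 131 to 320 CPM, each lowest in library 3 and highest in library 10. Library 10 was the highest of the 11 for 7 of the 9 genes, all but Id3 and Slamf6. No share of all genes highest in library 10 stands beside this count, so it does not set the members apart from other genes. Ccr7 ran from 33.0 (library 7) through 106 to 359 CPM, S1pr1 from 13.5 (library 3) through 28.6 to 83.3 CPM, and Bach2 from 11.4 (library 12) through 15.0 to 52.6 CPM. Slamf6 was lowest in library 3 at 9.22 CPM and highest in library 8 at 75.9 CPM, with a median of 28.5. Id3 stayed between 1.02 (library 9) and 9.30 CPM (library 6), with a median of 5.29.

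Library 10 had 76 CD8 T cells, and its Gzmb level of 302 CPM was the lowest of the 11 libraries (median 627). Genes of other cells moved with it in part, since the neutrophil gene S100a8 was at 487 CPM in its CD8 T cells (median of libraries 58.2) and the B cell gene Pax5 at 8.77 CPM (median 0), both the highest of the 11 libraries, while C1qa was the lowest at 61.4 CPM and Igkc was at 13.2 CPM against 52.5 CPM over all CD8 T cells. The Pax5 value rests on few counts, since Pax5 had 10 UMIs in 7 cells over all CD8 T cells. The part of these genes in the member levels was not tested. Without library 10, Satb1 over all CD8 T cells was at 117 CPM instead of 125. Why the libraries differ was not tested, and treatment and library cannot be told apart here.

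**Figure D2:**
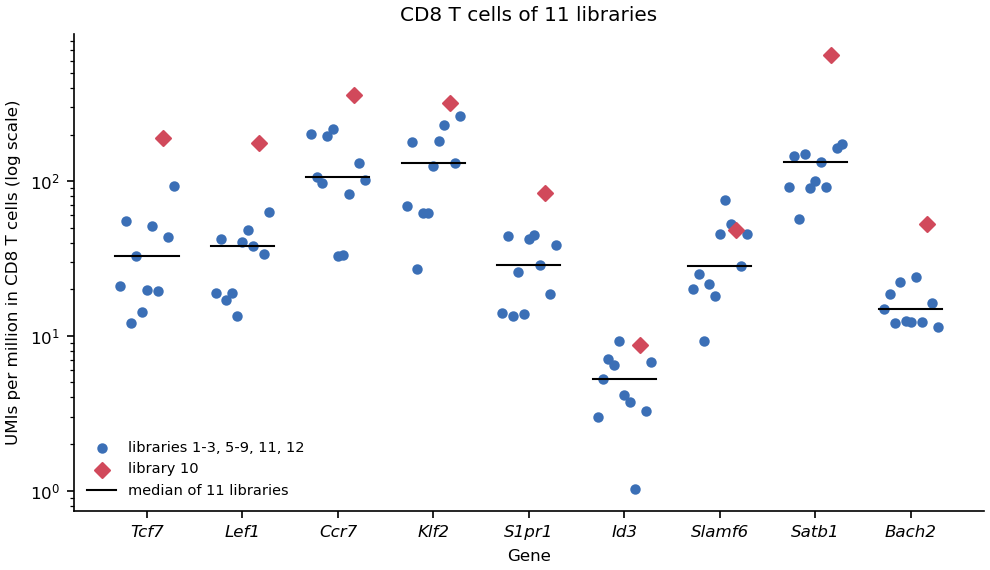
CPM of each gene in CD8 T cells (log scale), 1 point per library with at least 20 such cells, with the median of the 11 libraries as a line. Library 10 (diamonds) was the highest for 7 of the 9 genes, with Satb1 at 649 CPM, and Slamf6 and Id3 were the exceptions. This count has no share over all genes beside it.

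Part of the Ccr7 signal in the CD8 T cell gate moved with dendritic cell transcripts. A UMI of Fscn1, Ccl22, Cacnb3 or Il4i1, genes of mature dendritic cells, was present in 5.43% of CD8 T cells (210 of 3870). Ccr7 was at 667 CPM in those cells and 83.7 CPM in the other 3660, and the antigen presentation gene Cd74 was at 4725 and 1220 CPM. Of the other 8 members Tcf7 was higher in those cells, at 42.0 against 34.8 CPM, and 7 were lower, among them Slamf6 at 18.8 against 36.6 CPM and Lef1 at 11.6 against 34.7 CPM. Leaving such cells out also lowered Ccr7 from 143 to 76.7 CPM in conventional CD4 T cells and from 63.1 to 20.2 CPM in NK cells. The share of such cells ranged from 1.96% (library 12) to 9.46% (library 6) among libraries with at least 20 CD8 T cells. Without them, Ccr7 was at 22.2 CPM in library 8 and 318 CPM in library 10. Whether these barcodes hold a T cell and a dendritic cell together was not tested.

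Within CD8 T cells, the 9 genes were found in the same cells more often than their frequencies gave. At least 1 of them was detected in 59.5% of cells, while 40.5% had none, 29.2% had 1, 16.8% had 2 and 13.5% had 3 or more. The most found in a cell was 8, in 2 cells. Deeper cells show more genes, with a median of 2284 UMIs in cells with none and 4486 in cells with 3 or more, so pairs were compared within libraries and 5 strata of UMI depth as Mantel-Haenszel odds ratios. The odds ratio was above 1 for 35 of the 36 pairs. The share above 1 over pairs of other genes was not computed, so this count has no background beside it. For single genes set against having 2 or more members, the odds ratio over 9711 genes had a median of 1.07 and was above 1 for 64%. Such values close to 1 are therefore not set apart from other genes. After thinning to 500 UMIs per cell, 25 of 36 pairs were above 1 (median of 21 draws, 19 to 32).

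Klf2 and S1pr1 had an odds ratio of 2.87, with Klf2 in 48.1% of S1pr1+ cells and in 18.9% of S1pr1- cells. Tcf7 and S1pr1 stood at 2.62, as Tcf7 was found in 27.4% of S1pr1+ cells and 8.66% of the others. Tcf7 and Klf2 reached 2.59, with Tcf7 in 22.2% of Klf2+ and 7.08% of Klf2- cells. Ccr7 and Bach2 followed at 2.57, and Tcf7 and Ccr7 at 2.50. Without cells that held dendritic transcripts, Tcf7 and Ccr7 stood at 2.38 and Ccr7 and Bach2 at 3. The order of these 5 pairs changed with the processing. With the stricter myeloid exclusion, Tcf7 and Ccr7 were at 3.98 and Klf2 and S1pr1 at 2.65, and at a mitochondrial limit of 5% Tcf7 and Klf2 were the higher at 2.92. After thinning, Ccr7 and Bach2 stood at 2.39 (median of 21 draws, 0.5832 to 7.201) and Klf2 and S1pr1 at 2.02 (0.5451 to 4.499). Draws of Tcf7 and S1pr1 (0.7756 to 4.173) and of Tcf7 and Ccr7 (0.8383 to 3.633) also fell on either side of 1. Those of Tcf7 and Klf2 stayed above 1 (1.118 to 4.278). Tcf7 and Lef1, the related HMG box genes, stood lower at 1.85, with 93 cells holding both where 41.5 were given by their frequencies alone. The exception was Ccr7 with Id3 at 0.844 in 13 cells, which was above 1 under some settings.

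**Figure D3:**
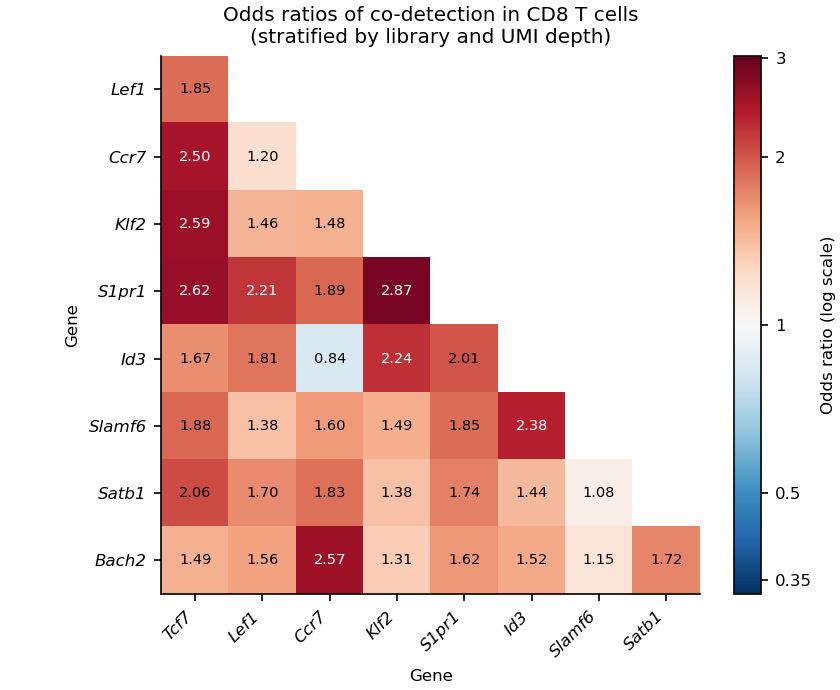
Odds ratio of detecting both genes of each pair in 3870 CD8 T cells, stratified by library and 5 levels of UMI depth, on a color scale that is white at 1. Klf2 with S1pr1 was at 2.87 and Ccr7 with Id3 at 0.844, and both the order of the highest pairs and the side of 1 for Ccr7 with Id3 changed under other settings.

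Genes of memory T cells were detected along with the 9 genes. Of 11 memory genes in at least 50 CD8 T cells, 11 had odds ratios above 1 to having 2 or more members, against 64% of all genes, and their median was 1.46, beside 1.07 over all genes. In 1 draw of thinning, set against having 1 or more members, 9 of 11 were above 1, with Cd27 (0.836) and Xcl1 (0.859) below it. Nsg2 led at 5.71, Dapl1 followed at 3.27 and Igfbp4 at 2.52, while Bcl2 (1.15), Cd27 (1.13) and Xcl1 (1.10) lay near the median of all genes. Nsg2 was found in 5.21% of cells with 2 or more members and 0.815% of the others, and its odds ratio was 4.59 to 6.53 with 1 library left out. After thinning, set against having 1 or more members, it was 2.23 (median of 21 draws, 0.827 to 6.35), and that of Dapl1 was 1.78 (0.5205 to 7.197). With the stricter myeloid exclusion, which left 1331 CD8 T cells, Dapl1 was at 19.8 and above Nsg2 at 4.83, so that their order was not settled. Il7r, the IL-7 receptor that sustains memory cells, stood at 2.47 and was at 391 CPM in cells with 3 or more members and 133 CPM in cells with none. Nsg2, Dapl1 and Il7r were above 1 with each of the 9 members, Nsg2 from 1.42 with Slamf6 to 4.02 with Satb1. The S1P and egress list had 4 of 4 genes above 1, against the same 64%, namely Itgb7 (2.05), Cd69 (1.54), S1pr2 (1.29) and S1pr4 (1.25), and Cd69 is known to remove S1P receptor 1 from the cell surface. Thinned in the same way, 3 of 4 were above 1, with S1pr2 at 0.948.

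Genes of effector and exhausted cells were mostly on the other side. Of 20 such genes, 14 had odds ratios below 1, against 36% of all genes, with a median of 0.763, and 14 were below 1 in the thinned draw. Lag3 was at 0.493, Pdcd1 at 0.504 and Cxcr6 at 0.540. After thinning, set against having 1 or more members, Lag3 was at 0.812 (0.501 to 0.994 over the draws), closer to 1 than Pdcd1 (0.701) and Cxcr6 (0.578). With the stricter myeloid exclusion Pdcd1 was at 0.326. Gzmb, the cytotoxic protease, was at 717 CPM in CD8 T cells with no member, 664 with 1, 513 with 2 and 377 with 3 or more. The share of cells with a Gzmb UMI changed less, at 46.8%, 47.7%, 47.5% and 42.2%, in cells whose median depth rose with the number of members. Between cells with none and with 3 or more, Prf1 was at 244 and 65.3 CPM and Havcr2, which encodes the checkpoint receptor TIM-3, at 99.7 and 49.0 CPM, while the shares of cells were 24.7% and 21.7% for Prf1 and 20.7% and 16.3% for Havcr2. Tcf7 was found in 4.38% of Havcr2+ cells and 11.8% of Havcr2- cells (odds ratio 0.326). Lag3 was lowest with S1pr1 (0.3) and Lef1 (0.308) and stood at 1.32 with Bach2. Slamf6 had the highest odds ratio of the 9 members to Pdcd1 (0.908) and Tox (1.18), while to Havcr2 it stood at 0.873, below Satb1 (0.929), and it was at 0.684 to Lag3 and 0.577 to Gzmb.

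The exceptions in the effector list were led by Ly6c2 at 2.17, Ccl5 at 1.46 and Gzma at 1.24. After thinning, set against having 1 or more members, Ly6c2 was at 1.404 and Ccl5 at 1.443. Ly6c2, a surface antigen of memory and effector CD8+ T cells, was above 1 with each of the 9 members. The chemokine gene Ccl5 was above 2 with Tcf7 (2.23), Lef1 (2.08) and S1pr1 (2.50) and below 1 with Ccr7 (0.664), Id3 (0.837) and Bach2 (0.790). Klrg1, a marker of terminal effector cells, was also above 1, at 1.195, and at 1.119 in the thinned draw against 1 or more members. With single members it was below 1 for 6 of the 9, among them Id3 (0.321), Ccr7 (0.397), Bach2 (0.465) and Tcf7 (0.476). It was above 1 with Lef1 (1.74), Klf2 (1.34) and Slamf6 (1.24). Klrg1 was found in 124 CD8 T cells and Id3 in 76, so the value of that pair rests on few cells. The cell cycle genes were on either side of 1, with 4 of 6 below it against 36% of all genes, from Stmn1 at 0.847, Cdk1 at 0.884 and Top2a at 0.934 to Mki67 at 0.973, Birc5 at 1.03 and Ccnb2 at 1.06. Their side of 1 depended on how depth was handled. With library alone as strata 6 of 6 were above 1 (1.17 to 1.36), and with 10 strata of depth in place of 5, 6 of 6 were below 1 (0.801 to 0.968).

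**Figure D4:**
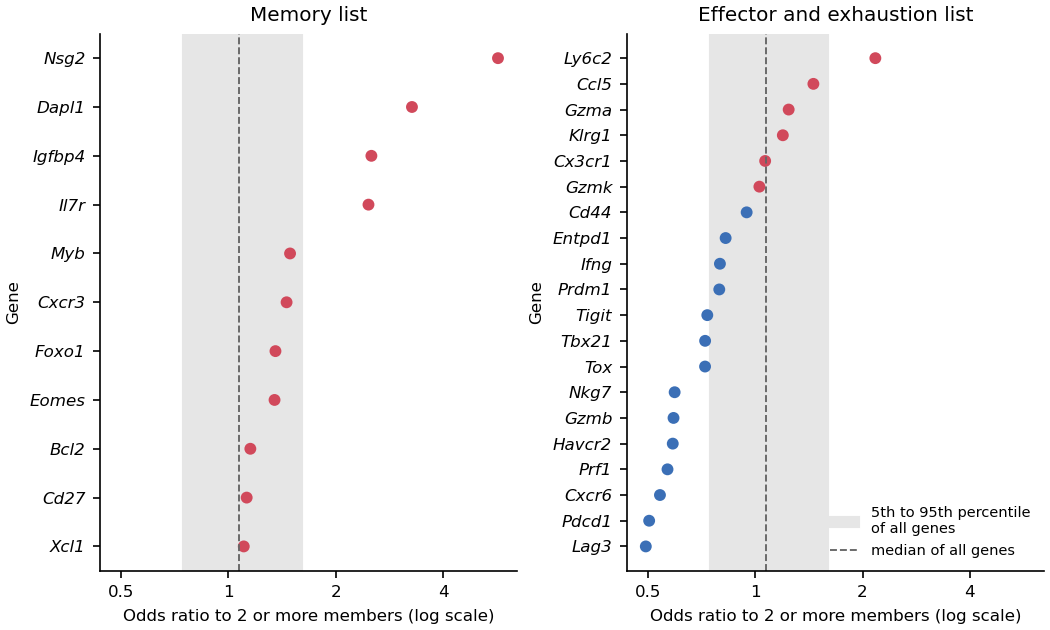
Odds ratio (log scale) of each memory gene and each effector or exhaustion gene to the presence of 2 or more of the 9 genes in CD8 T cells, with the median (dashed line) and the 5th to 95th percentile (gray band) of 9711 genes. Nsg2 and Dapl1 lay farthest to the right of the band at 5.71 and 3.27, and Lag3 and Pdcd1 to the left of it at 0.493 and 0.504.

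Relatives and partners of the members were also counted. Of 14 TCF, ID, KLF and BACH partners, 13 were above 1, against 64% of all genes, and 11 in the thinned draw, with Klf3 at 2.68, Id1 at 1.72 and Tcf7l2 at 1.61. Id2, the E protein inhibitor that is known to favor effector cells, was the exception at 0.715, and it was below 1 with each of the 9 members. Klf13 (1.03) and Bach1 (1.05) were the lowest of those above 1. In the SLAM family 5 of 8 genes were above 1, a share close to the 64% of all genes, and 3 in the thinned draw. Ly9 (1.55), Cd84 (1.49) and Slamf1 (1.46) led, while Cd244, the receptor 2B4, was at 0.471 and below 1 with each member, its lowest value being 0.316 with Slamf6. Cd48, which encodes the ligand of 2B4, was at 0.872 and the adaptor Sh2d1a at 0.893.

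Outside lymphocytes several of the 9 genes were at or above their T cell levels. Against the 59331 cells gated as monocytes or macrophages, CD8 T cells were at least 2-fold higher for 6 of 9 genes, against 20% of all genes, and at least 2-fold lower for Id3, against 16.4%. Lef1 and Tcf7 were near 0 there, at 0.373 and 0.343 CPM, and a UMI of Tcf7 was found in 0.287% of these cells at a median depth of 7683 UMIs. Against neutrophils CD8 T cells were at least 2-fold higher for 7 of 9 genes, which is read against 51.5% of all genes, and at least 2-fold lower for Klf2 and Id3, against 15%. Type 1 dendritic cells were exceeded 2-fold for 7 of 9 (20% of genes) and exceeded CD8 T cells for none (12.4%), and plasmacytoid dendritic cells were exceeded for 4 (11.7%) and were higher for Id3 (15.8%). Cd209a dendritic cells were exceeded for 5 of 9 (15.6%) and were higher for Id3 (12.2%), and basophils or mast cells were exceeded for Ccr7 (7.45%) and were higher for Klf2 (12.3%).

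Tcf7 was expressed in mature dendritic cells. These 994 cells had at least 3 of Fscn1, Ccl22, Cacnb3, Il4i1 and Ccl5 together with H2-Aa, and no UMI of Adgre1, Cd79a, Ms4a1, Ncr1 or the Cd3 genes, at a median depth of 4012 UMIs. Tcf7 was at 49.6 CPM in them (43.8 to 56.0), with a UMI in 166 cells (16.7%, 14.4 to 19.2%), against 35.4 CPM and 10.3% in CD8 T cells. After thinning to 500 UMIs, 2.82% (1.88 to 4.05%) and 2.30% (1.85 to 2.82%) of cells had a UMI, which did not differ beyond counting error. The gene was found in mature dendritic cells of each of the 12 libraries, from 18.2 CPM (library 9) through a median of 41.2 to 85.4 CPM (library 4), and it was higher there than in CD8 T cells in 6 of 11 libraries and lower in 5. Lef1 was at 0.573 CPM, with 3 UMIs in 2 cells of library 5 and none in the other 11 libraries, so that of the pair of HMG box genes Tcf7 alone was at its T cell level in these cells.

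The Tcf7+ dendritic cells carried few T cell transcripts, though the gate had left out cells with a Cd3 UMI. In the 166 cells Trac was at 1.74 CPM (2 UMIs), Trbc2 at 1.74, Lck at 2.60, Cd5 at 1.74 and Bcl11b at 0.868 CPM, against 521 CPM of Trac in CD8 T cells. Nkg7 was at 4.34, Cd8a at 7.81 and Thy1 at 8.68 CPM. In Tcf7- dendritic cells Trac (3.67), Trbc2 (3.425), Bcl11b (2.20) and Nkg7 (8.32 CPM) were higher. Lck (1.71), Cd5 (1.22), Cd8a (3.915) and Thy1 (5.14 CPM) were lower there. The Tcf7+ cells had Fscn1 at 1467 CPM against 858 CPM in Tcf7- dendritic cells and Flt3, the growth factor receptor of dendritic cells, at 155 against 94.0 CPM. Cacnb3 (571 against 362) and Ccl22 (1868 against 1822 CPM) were also higher in Tcf7+ cells. H2-Aa (2659 against 3752), Il4i1 (404 against 434) and Ccl5 (5911 against 6243 CPM) were lower in them. Their median depth was 5758 UMIs against 3742. Within libraries and strata of depth, Tcf7 had an odds ratio of 2.34 to Flt3, which this gate does not ask for. Its odds ratios to the gate genes were 4.25 to Fscn1, 3.27 to Cacnb3, 0.611 to Ccl22 and 0.874 to Il4i1, and asking for 3 of 5 genes ties these to each other, so they are given as a description. Of 8 genes of T or NK cells, each found in 7 to 29 cells, 6 were above 1 with Tcf7, namely Lck (5.16, in 10 cells), Thy1 (2.02, in 23), Nkg7 (1.59, in 29), Bcl11b (1.33), Cd5 (1.30) and Cd8a (1.25), and Trac (0.749, in 15) and Trbc2 (0.647) were below it. The share of Tcf7+ cells was 5.84% in cells with 2 of the 4 genes Fscn1, Ccl22, Cacnb3 and Il4i1, 16.1% with 3 and 26.7% with 4, while the median depth was 2637, 3694 and 5664 UMIs. Per UMI, Tcf7 was at 16.3 CPM with 2 of them and no higher with 4 (60.4 CPM) than with 3 (60.7 CPM). Other dendritic classes had almost none, with 1 Tcf7 UMI in 841 type 1 dendritic cells, 1 in 88 Cd209a dendritic cells and none in 222 plasmacytoid dendritic cells, which allows a share of up to 1.35%. It was higher in mature than in type 1 dendritic cells in 12 of 12 libraries.

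**Figure D5:**
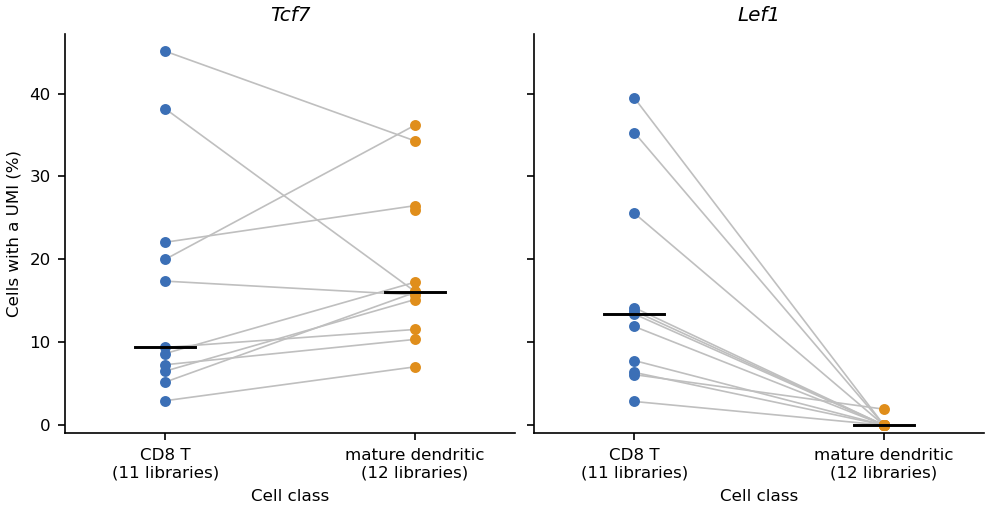
Percent of cells with a UMI of Tcf7 (left) and Lef1 (right) in CD8 T cells of 11 libraries and mature dendritic cells of 12 libraries, with lines joining the classes of a library and bars at the medians. Tcf7 was found in mature dendritic cells of each library, from 7.03% to 36.2%, whereas Lef1 was at 0 in all but library 5 (1.92%).

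Ccr7, which guides mature dendritic cells to lymph nodes, was at 2122 CPM in them (2083 to 2162), 89.9% of cells had a UMI, and it was higher than in CD8 T cells in 11 of 11 libraries. CD8 T cells were at least 2-fold higher than mature dendritic cells for 6 of 9 genes, against 22.7% of all genes, and at least 2-fold lower for Ccr7, against 15.8%. S1pr1 in mature dendritic cells was at 8.97 CPM and Klf2 at 45.2 CPM, and S1pr1, in 40 cells, had an odds ratio of 2.80 to Tcf7 there. Type 1 dendritic cells had Ccr7 at 44.0 CPM and Klf2 at 128 CPM.

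Slamf6 was detected in monocytes and macrophages. It was at 24.9 CPM (24.5 to 25.3), with a UMI in 18.2% of cells, and from 16.5 CPM (library 12) through 25.3 to 29.7 CPM (library 7) in the 12 libraries. After thinning, 1.25% of these cells had a UMI (1.16 to 1.34%) against 1.76% of CD8 T cells (1.37 to 2.22%), 0.215% of NK cells and 0.121% of neutrophils. Macrophages exceeded NK cells in 10 of 10 libraries and neutrophils (3.89 CPM) in 11 of 12, and they lay below CD8 T cells in 6 of 11. Its level in plasmacytoid dendritic cells was 57.8 CPM (42.6 to 76.6).

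Klf2 and Id3 were higher in neutrophils and in monocytes and macrophages than in CD8 T cells. Klf2 was at 1183 CPM in neutrophils (1147 to 1219), from 647 (library 11) through 986 to 1764 CPM (library 9) in 10 libraries, and exceeded CD8 T cells in 11 of 11. In monocytes and macrophages it was at 215 CPM, from 97.4 (library 3) through 172 to 384 CPM (library 2), and basophils or mast cells had 545 CPM (419 to 697). Id3 was at 23.5 CPM in monocytes and macrophages (23.1 to 23.9), above CD8 T cells in 11 of 11 libraries, from 8.13 (library 4) through 19.6 to 48.6 CPM (library 2). Its 33.3 CPM in neutrophils had a library median of 20.8 and a highest value of 191 CPM in library 3. S1pr1 in monocytes and macrophages was at 10.1 CPM, Bach2 at 8.47 and Satb1 at 1.47 CPM. Satb1 was at 97.5 CPM in plasmacytoid dendritic cells (77.4 to 121), and Bach2 at 33.5 CPM in Cd209a dendritic cells (21.9 to 49.1).

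Genes with the most similar profile over the 14 classes were listed for each member by Pearson correlation of log2 CPM with a pseudocount of 10, as a description over classes that share libraries and differ in depth. Tcf7 went with Serpinb9 (0.893), Adora2a (0.892) and Sema6d (0.889), the first pair being highest in mature dendritic cells. Lef1 went with Cd96 (0.986), Fasl (0.971) and Gm37387 (0.970), which peaked in T cells, and Cd96 and Fasl encode surface proteins of T and NK cells. Ccr7 went with Cd1d1 (0.908), Zfp770 (0.901) and Kif21b (0.879), all 3 highest in mature dendritic cells, and Klf2 with Xylt1 (0.921) and Abhd17c (0.863), both highest in neutrophils. Genes that peaked in B cells were nearest to S1pr1 (Edaradd, Atg16l2 and Gm8369, 0.905 to 0.921), to Slamf6 (Ly6k, Lipt1 and Lbh, 0.809 to 0.829), to Satb1 (Zfp101, Pabpn1 and Fbxl12, 0.895 to 0.914) and to Bach2 (Cpsf6 at 0.893 and Zfp94 at 0.870). Id3 went with Arhgap24 (0.969), highest in plasmacytoid dendritic cells, and with Rnf185 (0.883) and Ampd3 (0.868), highest in neutrophils.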

How the data were processed

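Single-cell libraries of CD45+ cells from 12 mice were made with the 10x Genomics 3' kit v3 per the labels. The authors deposited 1 matrix of UMI counts per gene and barcode, made with Cell Ranger (2.1.1 in the submitters' processing notes, 3.0.2 in the matrix header) on mm10, and the notes also name Seurat. The cell filter the study states was applied, which removes barcodes with 200 genes or fewer, with 5000 or more, or with over 10% of UMIs from mitochondrial genes, while its limit on genes found in few cells was not. The filter kept 128912 of 140639 barcodes, fewer than the cells the study counts, so the cells used here are not exactly its set. Classes were gated on lineage UMIs, and no doublet caller was run. The gates left out cells with UMIs of a few markers of other lineages, so that cells with other transcripts of those lineages, doublets among them, may remain. Because no label ties a library number to a mouse, the matrix was treated as 1 sample, with no test, p-value or comparison of treatments, and 0 columns of per-sample values were left unused.

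Levels are UMIs per 1000000 (CPM) over all cells of a class, with exact 95% Poisson intervals, and shares have Clopper-Pearson intervals, while a share of 0 is given the limit of 3 counts over the number of cells. Shares were also computed after thinning each cell to 500 UMIs, which no cell of a class fell below. Genes with at least 20 UMIs in both classes together were counted as higher or lower at a 2-fold difference, with 3 UMIs as the floor for the lower class. Co-detection was described by Mantel-Haenszel odds ratios stratified by library and by 5 strata of depth, and the scripts were tested on simulated data. After thinning, strata were libraries alone, and odds ratios to the number of members used 1 or more members in place of 2 or more. The minimum of 50 CD8 T cells with a listed gene and of 10 cells for orders within libraries were set after values were seen. All 9 members were named, and from each list the 3 genes with the highest and the 3 with the lowest odds ratios; for each member the 3 genes most like it over the classes were also named, among genes with at least 200 UMIs that were in no gate. Other genes were chosen after their values were seen. The members and lists were chosen with earlier results of these data known. A few genes that these rules name are not reported here, and 1 of them was left out of the lists. Cd244a was matched by its identifier to Cd244. Coordinates came from GENCODE M21, promoters from RefSeq (GRCm38.p6). Levels of different genes were not compared, since 3' counts are not per length. Scripts ran in Python 3.11.15 with scipy 1.17.1, numpy 2.4.6, matplotlib 3.10.9 and pandas 2.3.3.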

Additional observations from a re-analysis of the deposited data

How the results depend on the processing

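EZH2i could not be compared with vehicle, because the library numbers are not tied to samples. Classes were compared within libraries as counts of libraries, and no test was run. Apart from the headline results, most of which follow, 594 values were computed under other settings, of which 470 stayed the same, 121 moved and 3 reversed. Of 876 such values with 1 library left out, 838 stayed the same, 37 moved and 1 reversed. A level stayed the same if it lay within its main counting interval, and a count, odds ratio or percent of genes if it changed by no more than 1.5 times. The log2 ratio stayed the same if its change was small. An odds ratio reversed if it changed its side of 1. Ccr7 in CD8 T cells (127 CPM) was 104.7 at a mitochondrial limit of 5%, 121.4 with 2 UMIs of the gate genes, 110.5 with the stricter myeloid exclusion, which left 1331 CD8 T cells, 106.4 as the median over libraries and 109.4 to 147.2 with 1 library left out. It was 83.67 without cells holding a mature dendritic gene, an alternative chosen after seeing the data, as was asking for all 4 dendritic genes, which put Tcf7 in mature dendritic cells (49.63) at 60.43. That Tcf7 level was 60.36 after thinning (median of 21 draws), 41.16 as the median over libraries and 41.96 to 52.96 with 1 library left out. Over the 21 draws the log2 ratio of Tcf7 in mature dendritic over CD8 T cells ran from -0.1494 to 0.8667. Slamf6 in monocytes and macrophages (24.9) was 23.12 at the 5% limit, 26 under 3000 genes per cell and 24.48 to 25.55 with 1 library left out. The share of CD8 T cells with any member (59.48%) was 22.2% after thinning, 54.77% with the stricter exclusion and 56.09 to 66.06% with 1 library left out. The odds ratio of Ccr7 and Id3 (0.844) was above 1 after thinning (1.532, with draws from 0 to 5.04), with the stricter exclusion (1.104), with library alone as strata (1.114) and without library 6 (1.113; 0.7068 to 1.113 over libraries left out), and the cause was not tested. With 1 library left out, 35 to 36 pairs were above 1, 14 to 15 effector genes below 1, and 6 to 7 members highest in B cells. The count of members highest in B cells was 6 after thinning (median of 21 draws, 4 to 7). It was also 6 at the 5% mitochondrial limit and under 3000 genes per cell. The Foxp3+, gamma delta and B cell values rest on 39, 90 and 247 cells, and Id3 in CD8 T cells on 82 UMIs.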
